A study of Homo sapiens with 12 samples.

Results

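The genes described here are the chaperone and protein folding genes of the human genome: protein-coding genes of GENCODE v44 whose symbol starts with HSPA, HSPB, HSPD, HSPE, HSPH, HSP90, DNAJA, DNAJB, DNAJC, PDIA, FKBP or CCT followed directly by a digit. The rule found 100 of 20046 protein-coding genes. They were 15 HSP70-family genes (HSPH1 included), 8 small heat shock protein genes, 12 chaperonin genes, 45 J-domain genes, 5 protein disulfide isomerase genes and 15 FKBP genes. The HSP90 genes HSP90AA1, HSP90AB1 and HSP90B1 carry a letter after HSP90, so they fell outside the rule and are given separately near the end.

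Chaperones bind unfolded or partly folded proteins and let them reach their native state, usually through cycles driven by ATP. HSP70 proteins hold short unfolded segments, J-domain proteins bring them their substrates and stimulate their ATPase, and the HSP110 proteins, which belong to the HSP70 family, release ADP from HSP70. Chaperonins enclose a folding protein in a barrel, protein disulfide isomerases form and rearrange disulfide bonds in the endoplasmic reticulum, and FKBPs turn peptide bonds next to proline. Hepatocytes secrete large amounts of plasma proteins and depend on the folding machinery of the endoplasmic reticulum.

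Binding was measured by PAR-CLIP in HepG2, an established human liver cancer cell line of wild-type genotype. RNA was labeled with 4-thiouridine, crosslinked with ultraviolet light, trimmed with RNase T1 and precipitated with an antibody to 1 of 5 proteins, and stretches of RNA with crosslinked reads were called as clusters. The 3 IGF2BP proteins bind mRNA and were examined by the study as readers of internal m7G, while METTL1 and WDR4 form a methyltransferase that writes m7G. There were 4 libraries for IGF2BP3, a pair of them marked bio2 in the labels, and 2 for each of the others, giving 8 IGF2BP libraries against 4 METTL1 and WDR4 libraries. All 12 libraries shared the cell line, genotype, labeling and digestion, and no input or mock library was among them.

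The libraries held 4581 to 15701 clusters, which is the only measure of depth in the files, since no read counts were given. A cluster therefore reflects both binding and the abundance of the RNA, and these cannot be told apart here. The bio2 libraries stood apart from the other 10, with a median cluster width of 34 nt and 35 nt against 38 to 43 nt, so results that rest on them are given with and without them. Of 10 hepatocyte genes, 9 had an exonic cluster, and APOB, SERPINA1, FGB and HNF4A had them in all 12 libraries, while TTR had none. Whether replicates came from separate cultures is not settled by the labels, so p-values measure the spread between these libraries, which may be technical. The libraries are also nested in 5 proteins but were tested as separate units. The spread within a group therefore mixes differences between proteins with differences between replicates.

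The sites that recurred most often in chaperone mRNAs are shown as 30-nt windows at their centers, read from hg38 on the strand of the gene. Capitals mark CAT followed by A, C or T (CAUH in RNA letters), a short element looked for because CA-rich tetramers are known from IGF2BP binding, searched on the RNA strand only. The first 7 were chosen by the number of libraries from the sites whose center occurs at most 2 times in the genome, the HSPA4L intron site was the intronic site found in the most libraries, and the FKBP1A and CCT5 sites were picked after their values were seen.
CCT2 (chr12:69589534-69589563, plus strand): aCATTatcctcaaaacttcttactCATCac
DNAJC3 upstream (chr13:95792021-95792050, plus strand): ttaaaggtctgtggtgcctcccacgtggga
DNAJC3 downstream (chr13:95792479-95792508, plus strand): ttttaattcactgtgggaggCATCctgacc
PDIA3 (chr15:43771783-43771812, plus strand): aaattctttcaaaatttattatctctttct
HSPH1 (chr13:31136739-31136768, minus strand): aaaaactttaaactttctctctcactatac
FKBP10 (chr17:41822749-41822778, plus strand): tatcCATCtccccaaactttctctttcttt
DNAJC18 (chr5:139413071-139413100, minus strand): aCATAttttcttacttaaacctcctcacaa
HSPA4L intron (chr4:127791721-127791750, plus strand): ctctaccacttttatccCATCATCATTtac
FKBP1A (chr20:1369307-1369336, minus strand): ataactttccaagctccaccacttcctaaa
CCT5 (chr5:10250671-10250700, plus strand): gcgcccttcggagctgggtggggccgctca

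Many chaperone mRNAs carried exonic clusters, and few carried them in most libraries. Of the 100 genes, 50 had an exonic cluster in at least 1 library, against 31.1% of all protein-coding genes. In at least 4 libraries the numbers were 22 of 100 and 15.9%, and in at least 9 libraries 4 of 100 and 4.88%. The 4 genes were CCT2, with 11 libraries, DNAJC3 and FKBP10, with 10 each, and HSPA4L, with 9. No chaperone gene had an exonic cluster in all 12 libraries, as 1.17% of all genes did. Chaperone genes as a set are not matched to other genes in RNA level or length, and neither was tested as a part of these shares.

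The 100 genes took up a small part of each library. They held 0.385% ± 0.0317 (SD, n = 8) of the clusters of the IGF2BP libraries, with a range of 0.337% to 0.428%. In the METTL1 and WDR4 libraries they held 0.313% ± 0.0636 (SD, n = 4), with a range of 0.250% to 0.393%. The ranges overlapped, and the 95% Wilson interval of a single library was wide (0.249% to 0.525% for IGF2BP2 replicate 2). Without HSPA4L and DNAJC22 the share ran from 0.147% in IGF2BP2 replicate 2 to 0.403% in bio2 replicate 1. Of clusters in protein-coding genes alone, they held 0.521% and 0.482%. In all, 265 exonic and 107 intronic clusters lay in these genes, of which 197 were in 3' UTRs, 46 in coding sequence, 10 in 5' UTRs and 12 in other exons.

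**Figure D1:**
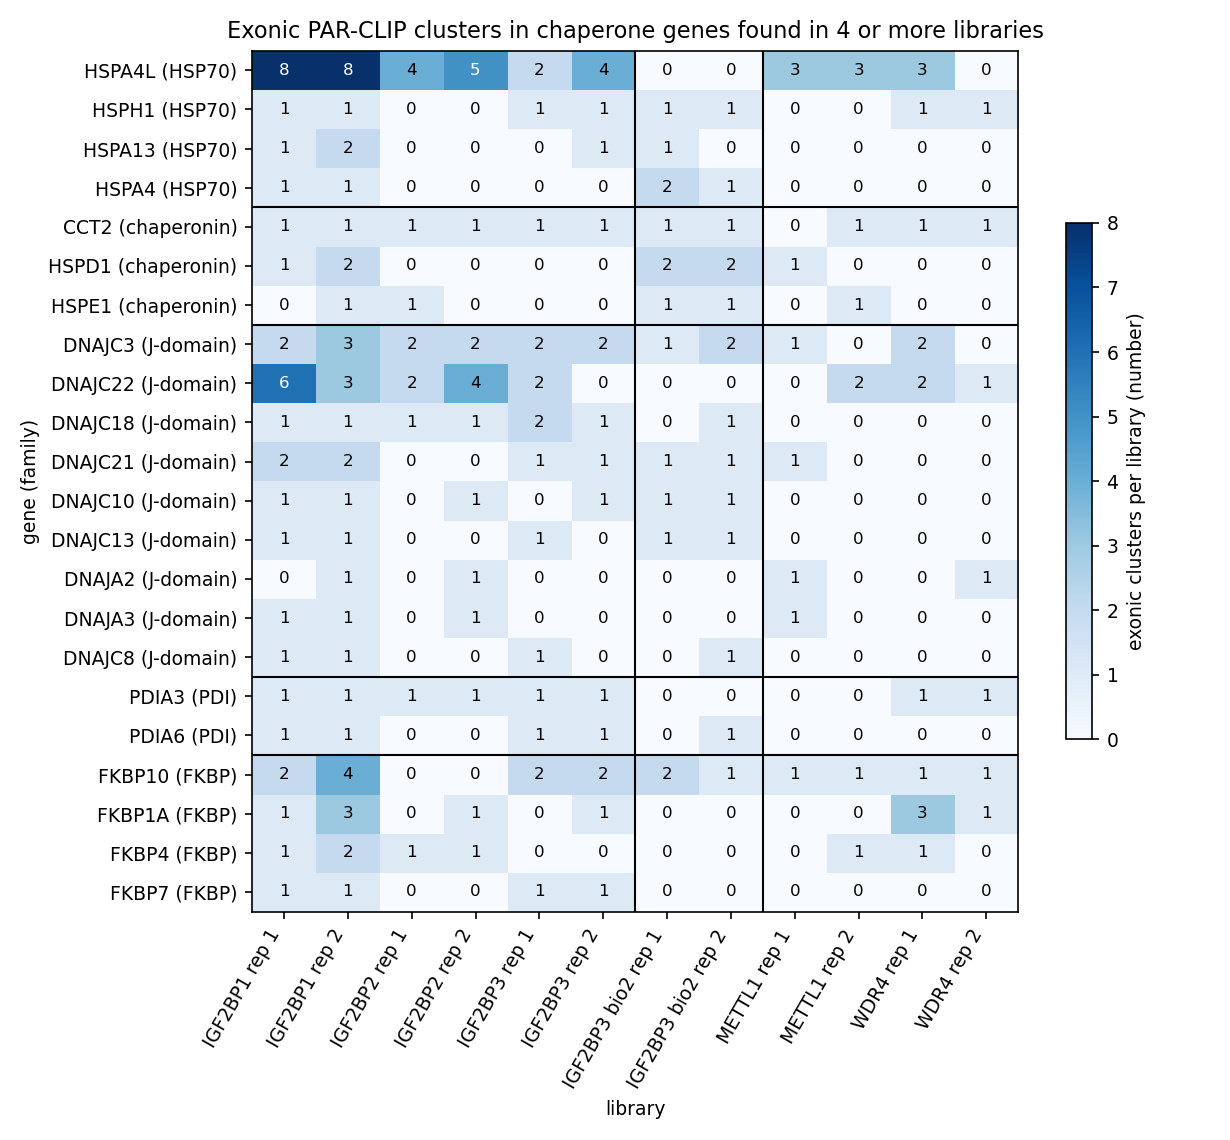
Number of exonic clusters (color and digits) in each of the 12 libraries (columns) for the 22 chaperone genes found in 4 or more libraries (rows, by family). HSPA4L reached 8 clusters in both IGF2BP1 libraries and had none in the bio2 libraries, while CCT2 had 1 cluster in 11 of 12 libraries.

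Of the 15 HSP70-family genes, 7 had an exonic cluster, against 50 of the 100 genes. They were HSPA4L, HSPH1, HSPA4, HSPA13, HSPA8, HSPA9 and HSPA5, in order of the number of libraries and then of clusters. HSPA4L, an HSP110-type exchange factor for HSP70, had 8 exonic clusters in each IGF2BP1 library, while IGF2BP2 gave 4 and 5. In IGF2BP3 it had 2 and 4, in the bio2 pair 0 and 0, in both METTL1 libraries 3, and in WDR4 3 and 0. All 40 lay in its 3' UTR. HSPH1, the best known HSP110 protein, had 1 cluster in each of 8 libraries, namely both IGF2BP1, all 4 IGF2BP3 and both WDR4 libraries. All of these fell on the same 35 nt of the 3' UTR (chr13:31136737-31136771, minus strand, exon 18 of 18), and the IGF2BP2 and METTL1 libraries had none. HSPA4, another HSP110 gene, had 5 clusters in 4 libraries (1 and 1 in IGF2BP1, 2 and 1 in bio2), and 4 of the libraries shared a 3' UTR site at chr5:133104948-133104978 on the plus strand.

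HSPA13, a microsomal member of the family, had 5 single-copy clusters in 4 libraries, with 1 and 2 in IGF2BP1, 1 in IGF2BP3 replicate 2 and 1 in bio2 replicate 1. HSPA9, the mitochondrial HSP70, had 1 cluster in IGF2BP2 replicate 1 and 1 in bio2 replicate 2. HSPA8, the constitutive cytosolic HSP70, had 3 exonic clusters in both bio2 libraries, 1 in IGF2BP1 replicate 2 and none in the other 9. Part of these lay over small nucleolar RNA genes of its introns (SNORD14C and SNORD14D), where they were classed as 5' UTR of HSPA8. HSPA5, the HSP70 of the endoplasmic reticulum known as BiP, had 1 cluster in bio2 replicate 1 and no other. HSPA1A, the main heat-inducible HSP70, had none. Of the 30-nt exon windows of HSPA1A 23.0% occurred once in the genome, while 94.2% occurred at no more than the 10 places that the mapping allowed.

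Among chaperonins, the most widely bound was CCT2. CCT2, a subunit of the cytosolic TRiC chaperonin that folds actin and tubulin, had exactly 1 exonic cluster in 11 libraries and 0 in METTL1 replicate 1. All 11 overlapped at chr12:69589519-69589581 (plus strand), in the coding sequence of exon 7 of 16, and all were single-copy. The window held CAUH at 2 places. Its level was 1.38 ± 0.510 (SD, n = 8) clusters per 10000 clusters of the library in the IGF2BP group, against 0.817 ± 0.547 (SD, n = 4) for METTL1 with WDR4. With 1 cluster per library, this level follows the library total alone.

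The other chaperonins were bound in fewer libraries. HSPD1, the mitochondrial HSP60, had 2 exonic clusters in both bio2 libraries, 1 and 2 in the IGF2BP1 libraries, 1 in METTL1 replicate 1 and 0 in the other 7. Its co-chaperonin HSPE1 had 1 cluster in each of 5 libraries (IGF2BP1 replicate 2, IGF2BP2 replicate 1, METTL1 replicate 2 and both bio2). Of the HSPD1 clusters, 1 of 8 was single-copy, and of the HSPE1 clusters none of 5, so reads from their processed copies elsewhere in the genome can fall on these genes. CCT5, another TRiC subunit, had clusters in both WDR4 libraries and in no other, on 23 nt of its 5' UTR at chr5:10250674-10250696 (plus strand). This was the only recurring exonic site of the 100 genes without an IGF2BP library. CCT3, CCT4, CCT7 and CCT8 had no exonic cluster.

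In the largest family, the J-domain genes, 23 of 45 had an exonic cluster in at least 1 library, against 50 of the 100 genes. At least 4 libraries held one for 9 of the 45, against 22 of the 100. The family had 104 exonic clusters. DNAJC3, a co-chaperone of BiP in the endoplasmic reticulum and an inhibitor of the eIF2α kinases PERK and PKR, was bound in every IGF2BP library. It had 2 and 3 clusters in IGF2BP1, 2 and 2 in IGF2BP2, 2 and 2 in IGF2BP3, 1 and 2 in bio2, 1 and 0 in METTL1, and 2 and 0 in WDR4. The level per 10000 clusters was 2.65 ± 1.00 (SD, n = 8) against 0.890 ± 1.05 (SD, n = 4), which is 1.76 higher (exact permutation test, two-sided, p = 0.0242, adjusted p = 0.148). The IGF2BP libraries ran from 1.38 to 4.37 and the others from 0 to 2.05, so the groups overlapped.

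The DNAJC3 clusters were concentrated on a pair of 3' UTR sites. The upstream site (chr13:95792009-95792065, plus strand, exon 12 of 12, centered 1008 nt after the coding sequence) and the downstream site (chr13:95792472-95792511, centered 1466 nt after it) were found in 8 libraries each. The upstream site was present in bio2 replicate 1 and the downstream site in neither bio2 library. Both were single-copy in every library. Only the downstream window held CAUH.

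Other J-domain genes varied in the libraries that held their clusters. DNAJC18, a J-domain protein of the endoplasmic reticulum membrane, had 1 and 1 clusters in IGF2BP1, 1 and 1 in IGF2BP2, 2 and 1 in IGF2BP3, 0 and 1 in bio2 and none in the 4 METTL1 and WDR4 libraries. Its difference was 1.38 per 10000 (0.971 SD, n = 8, against 0; exact permutation test, two-sided, p = 0.0242, adjusted p = 0.148), and 7 of its 8 clusters fell at chr5:139413066-139413107 (minus strand, 3' UTR), whose center occurs at 2 places in the genome. DNAJC10, a disulfide reductase of the endoplasmic reticulum known as ERdj5, had 1 cluster in 6 IGF2BP libraries and 0 in the other 2 and in the METTL1 and WDR4 libraries (difference 0.918 per 10000, exact permutation test, two-sided, p = 0.0485, adjusted p = 0.184). Its recurring sites were in coding sequence, in exons 13 and 18. DNAJC18 and DNAJC10 passed the filter on low values through IGF2BP libraries alone, so their differences had to point that way. DNAJB12, DNAJC11, DNAJC16 and DNAJC5 had 1 exonic cluster each, in a METTL1 library.

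DNAJC22 had 6 and 3 clusters in IGF2BP1, 2 and 4 in IGF2BP2, 2 and 0 in IGF2BP3, none in bio2, 0 and 2 in METTL1 and 2 and 1 in WDR4. Its most frequent site (chr12:49352480-49352542, plus strand, 3' UTR) was present in 8 libraries, and the median number of genome copies of its center was 27. DNAJC21, which acts in ribosome biogenesis, had 2 clusters in both IGF2BP1 libraries, 1 in each of the 4 IGF2BP3 libraries and in METTL1 replicate 1, and none elsewhere. A site at chr5:34952474-34952507 (plus strand), in an exon of a transcript without a protein-coding annotation, was shared by 6 of these libraries and by no METTL1 or WDR4 library, and its window held CAUH at 3 places. DNAJC13, an endosomal J-domain protein, shared a coding site in exon 33 among 5 IGF2BP libraries. DNAJB1, the main cytosolic partner of inducible HSP70, had 1 cluster in IGF2BP1 replicate 1. DNAJA1 had no exonic cluster.

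Of the 5 protein disulfide isomerase genes 2 had an exonic cluster, against 50 of the 100 genes. PDIA5 had intronic clusters alone, 1 in METTL1 replicate 2 and 1 in WDR4 replicate 2. PDIA3, which folds glycoproteins together with calnexin and calreticulin, had 1 cluster in each of 8 libraries (both of IGF2BP1, IGF2BP2 and WDR4, and IGF2BP3 outside bio2), all at chr15:43771771-43771823 (plus strand, 3' UTR). PDIA6 had 1 cluster in 5 IGF2BP libraries. None of the 8 small heat shock protein genes, HSPB1 among them, had an exonic or an intronic cluster in any library. Of all 100 chaperone genes, 50 had an exonic and 29 an intronic cluster. Over all protein-coding genes the shares were 31.1% and 29.3%. Whether the families differ was not tested.

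Of the 15 FKBP genes, 11 had an exonic cluster in at least 1 library and 4 in at least 4 libraries, against 50 and 22 of the 100 genes. FKBP10, a collagen chaperone of the endoplasmic reticulum, had 2 and 4 clusters in IGF2BP1, 0 in both IGF2BP2 libraries, 2 and 2 in IGF2BP3, 2 and 1 in bio2, and 1 in each METTL1 and WDR4 library. All of its 17 clusters were single-copy. The main site lay at chr17:41822748-41822779 (plus strand, 3' UTR) in 8 libraries. A neighboring site at chr17:41822690-41822732 was found in the 4 IGF2BP3 libraries and no other, and a further site at chr17:41822605-41822639 in both IGF2BP1 libraries and no other. All 3 windows held CAUH. Whether these neighboring sites differ between proteins was not tested.

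FKBP1A, the target of rapamycin and tacrolimus known as FKBP12, had 1 and 3 clusters in IGF2BP1, 0 and 1 in IGF2BP2, 0 and 1 in IGF2BP3, none in bio2 or METTL1, and 3 and 1 in WDR4. A 3' UTR window of FKBP1A (chr20:1369307-1369336, minus strand) was identical to a window of FKBP1C (chr6:63212660-63212689, plus strand), and its center occurred at 5 places in the genome. Clusters of these genes at this sequence cannot be told apart. A second FKBP1A site (chr20:1369486-1369524, minus strand, 3' UTR) was single-copy and present in both IGF2BP1, 1 IGF2BP2, 1 IGF2BP3 and 1 WDR4 library. FKBP4, an HSP90 co-chaperone of steroid receptors, had 1 and 2 clusters in IGF2BP1, 1 and 1 in IGF2BP2, 0 and 1 in METTL1, 1 and 0 in WDR4 and none in IGF2BP3. FKBP5, its relative that is induced by glucocorticoids, had 1 cluster in IGF2BP1 replicate 2 and 1 in bio2 replicate 1.

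Per length of coding sequence and 3' UTR, the order of the genes was different from that by cluster number. Summed over the 12 libraries, HSPE1 had 9.96 clusters per kilobase, FKBP1A 6.85, DNAJC22 6.84, FKBP10 6.65, CCT2 5.93, HSPA4L 3.85 and DNAJC3 3.47. Counting single-copy clusters alone, FKBP10 had 6.65, CCT2 5.93, FKBP1A 4.79 and DNAJC3 3.47, while HSPA4L had 0.482, DNAJC22 0.622 and HSPE1 0. The numbers are sums over libraries and carry no error between them.

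The comparison of the IGF2BP proteins with METTL1 and WDR4 asked, gene by gene, whether exonic clusters per 10000 clusters differed between the 8 and the 4 libraries. A two-sided exact permutation test over all ways of placing 8 of the 12 libraries in the IGF2BP group was run on the 3188 genes with an exonic cluster in at least 4 libraries, with Benjamini-Hochberg adjustment over them. Of these, 135 genes (4.23%) were higher in the IGF2BP libraries and 14 (0.439%) were higher in the METTL1 and WDR4 libraries at an adjusted p below 0.05. No chaperone gene was among them, and none was called under any alternative setting. With proteins in place of libraries as units, the same exact permutation test called no gene, and its smallest adjusted p over all genes was 0.540. The counts over all genes were not stable: leaving out any 1 library other than IGF2BP2 replicate 1 left 0 genes called, and leaving out that library gave 225. Leaving out a library also raises the smallest p the test can reach. With all 12 libraries, 149 genes were at that smallest p, and 129 were needed for calls that rest on that p alone. Loss of resolution and dependence on single libraries therefore cannot be told apart here. Of the 22 tested, 3 had an unadjusted p below 0.05 (DNAJC3, DNAJC18 and DNAJC10), against 26.4% of all genes tested, and the smallest adjusted p was 0.148.

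The direction was the same as for genes at large. Of the 22 tested chaperone genes, 19 had the higher mean in the IGF2BP libraries, and 82.4% of all genes tested did so. The median difference was 0.633 clusters per 10000 for chaperone genes and 0.736 for all. The 3 genes with the lower mean were DNAJA2 (-0.40), FKBP1A (-0.36) and DNAJA3 (-0.04), and none of these differences passed the test. Chaperone genes that had no METTL1 or WDR4 cluster entered the test through IGF2BP libraries alone, so the count of 19 is no measure of preference. The HSPA4L difference of 1.60 per 10000 was smaller than the spread of 3.12 (SD, n = 8) between IGF2BP libraries (two-sided exact permutation test, adjusted p = 0.523).

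A site was called reproducible for a protein when clusters of at least 2 of its libraries overlapped. In exons, 25 chaperone genes had such a site for IGF2BP1, against 16.1% of all protein-coding genes, 7 for IGF2BP2, against 5.97%, and 17 for IGF2BP3, against 14.2%. METTL1 had none, against 2.95%, and WDR4 had 7, against 3.38%. As the rule leaves 100 genes, each count is also a percentage of them. The IGF2BP3 count drew on 4 libraries. It fell to 10 without the bio2 libraries, against 10.1% of all genes, and to 10 from bio2 alone, against 9.28%. With single-copy clusters the counts were 19 for IGF2BP1 (13.2% of all genes), 4 for IGF2BP2 (4.26%) and 12 for IGF2BP3 (11.9%). For METTL1 and WDR4 they were 0 (1.96%) and 5 (1.94%). IGF2BP1 had the most clusters per library. The 7 genes of WDR4 were CCT2, CCT5, DNAJC22, FKBP10, FKBP1A, HSPH1 and PDIA3, and of these CCT5 alone had no site of IGF2BP1.

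**Figure D2:**
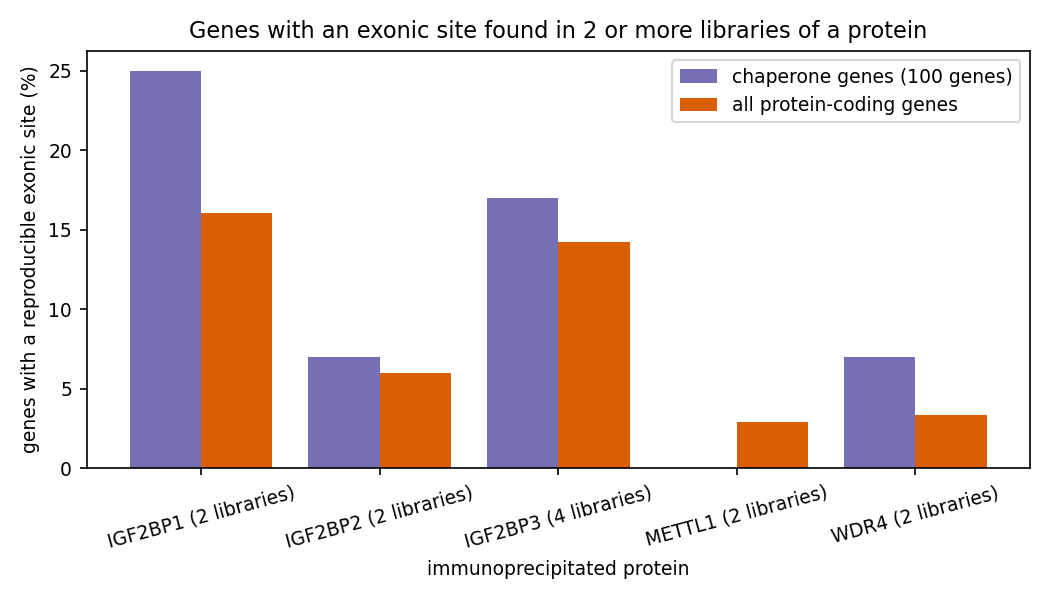
Percentage of genes with an exonic site in 2 or more libraries of a protein, for the 100 chaperone genes (purple) and for all 20046 protein-coding genes (orange), by protein. Chaperone genes ran from 0 for METTL1 to 25 for IGF2BP1, and the percentages of all genes from 2.95 to 16.1.

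Merging overlapping clusters of all libraries gave 101 exonic sites in chaperone genes. Of these, 51 came from 1 library and 50 from at least 2, over 32 genes, and 14 from at least 6. Of the 50 recurring sites, 37 lay in 3' UTRs, 9 in coding sequence, 2 in 5' UTRs and 2 in other exons. IGF2BP libraries alone made up 30 of them, METTL1 and WDR4 libraries alone made up 1, and 19 held both. Sites in 3' UTRs were spread along the UTR, with a median position of 0.492 of its length (n = 37 sites, from 0.0240 to 0.949).

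The 3' UTR share of chaperone clusters was higher on average in the IGF2BP libraries and the intron share higher on average in the METTL1 and WDR4 libraries. In the 6 IGF2BP libraries without the bio2 label, 65.4% ± 2.41 (SD, n = 6) of chaperone clusters were in 3' UTRs. For all protein-coding genes it was 56.3% ± 2.30 (SD, n = 6). The ranges of 63.0% to 69.6% and 53.8% to 60.5% did not overlap. However, in each of these 6 libraries the share over all genes lay inside the Wilson interval of the chaperone share. In IGF2BP1 replicate 1 that interval was 53.7% to 76.7%, against 56.5% for all genes. Sites such as that of PDIA3 recurred in all 6 libraries, so the 6 values are not independent. Without HSPA4L and DNAJC22, the pair with the most clusters in repeated sequence, the chaperone share ran from 64.7% to 72.7%. With single-copy clusters it ran from 50.0% to 70.0%, with both IGF2BP2 libraries at its low end. The share over all genes was taken from clusters of any copy number, so it is no like measure for this range. In the bio2 libraries the order was the other way, at 38.5% and 39.1% for chaperone genes and 48.1% and 49.0% for all. In the METTL1 and WDR4 libraries the 3' UTR share was 34.1% ± 11.7 (SD, n = 4) for chaperone genes and 29.5% ± 1.18 (SD, n = 4) for all. In WDR4 replicate 1 the 3' UTR share (48.1%) was above the intron share (37.0%). Introns held 49.6% ± 9.50 (SD, n = 4) of chaperone clusters in these libraries and 20.2% ± 4.72 (SD, n = 8) in the IGF2BP libraries, against 53.6% and 22.7% for all genes. Libraries held 19 to 63 chaperone clusters, so a share in 1 library had a wide interval.

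**Figure D3:**
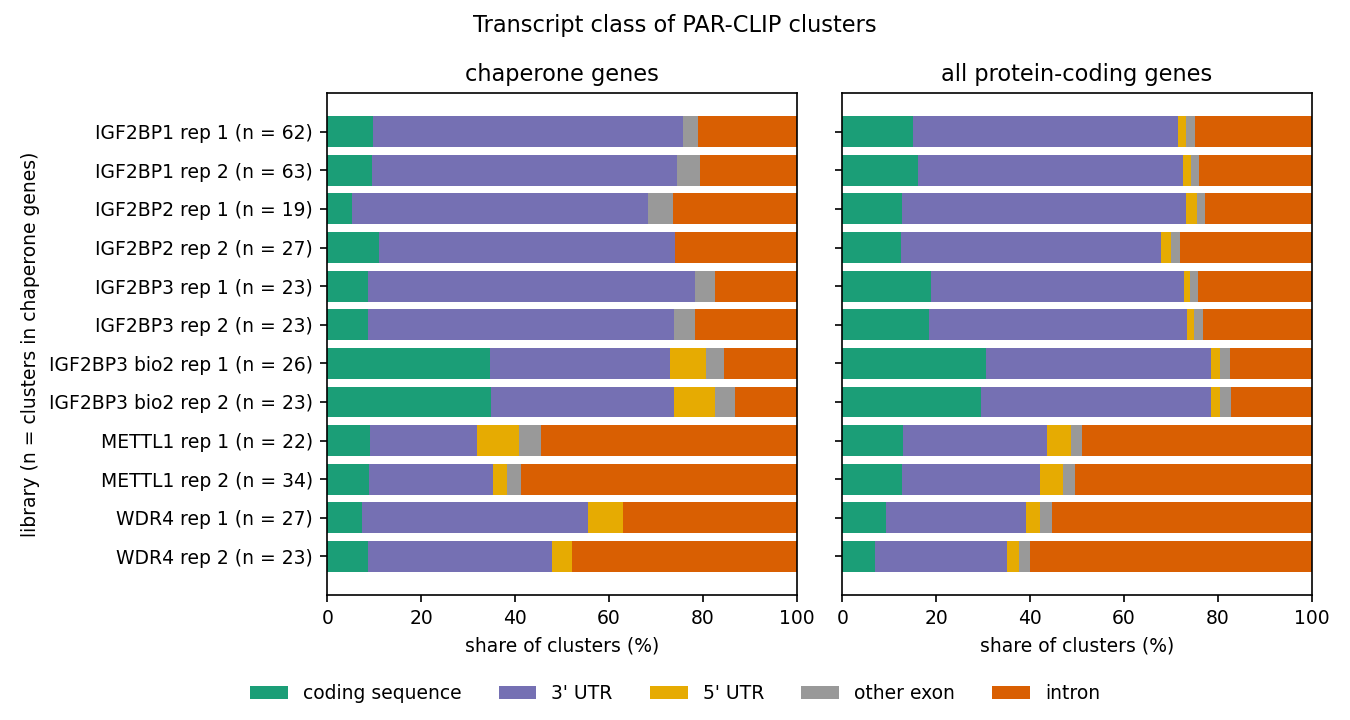
Share of clusters (%) by transcript class in each library, for chaperone genes (left) and all protein-coding genes (right), with the number of chaperone clusters beside each library. Coding sequence took 34.6% and 34.8% of chaperone clusters in the bio2 libraries and at most 11.1% in the other 10.

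The bio2 libraries had a different balance. Coding sequence held 9 of 26 chaperone clusters in bio2 replicate 1 (34.6%) and 8 of 23 in replicate 2 (34.8%), while the other IGF2BP libraries had 5.26% to 11.1%. Over all genes, coding sequence held 30.5% and 29.6% of clusters in the bio2 libraries and 12.5% to 18.9% in the other IGF2BP libraries, so the shift was not limited to chaperone genes. For single-copy chaperone clusters alone, the coding shares were 25.0% and 26.7% in bio2. In the other IGF2BP libraries they ran from 10.0% to 27.3%, so the ranges overlapped. Without HSPA4L and DNAJC22, the bio2 shares stayed at 34.6% and 34.8%, and the other IGF2BP libraries ran from 11.1% to 27.3%. The coding clusters of the bio2 libraries came from 8 and 6 chaperone genes, and 3 and 4 of them lay in HSPA8 and HSPD1. Of the 9 recurring coding sites, 6 were present in both bio2 libraries, over 5 genes.

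A large part of the 3' UTR signal came from repeated sequence in a pair of genes. HSPA4L and DNAJC22 together held 62 of the 265 exonic clusters (23.4%). The central 20 nt occurred once in the genome for 11.3% of these and for 75.4% of the other 203. In HSPA4L, 35 of 40 clusters had a center with more than 10 copies and 5 were single-copy. The mapping kept reads with up to 10 places, and 88.4% of the 30-nt exon windows of HSPA4L passed that limit, the lowest share among the chaperone genes. Where in the genome these reads arose cannot be told apart.

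**Figure D4:**
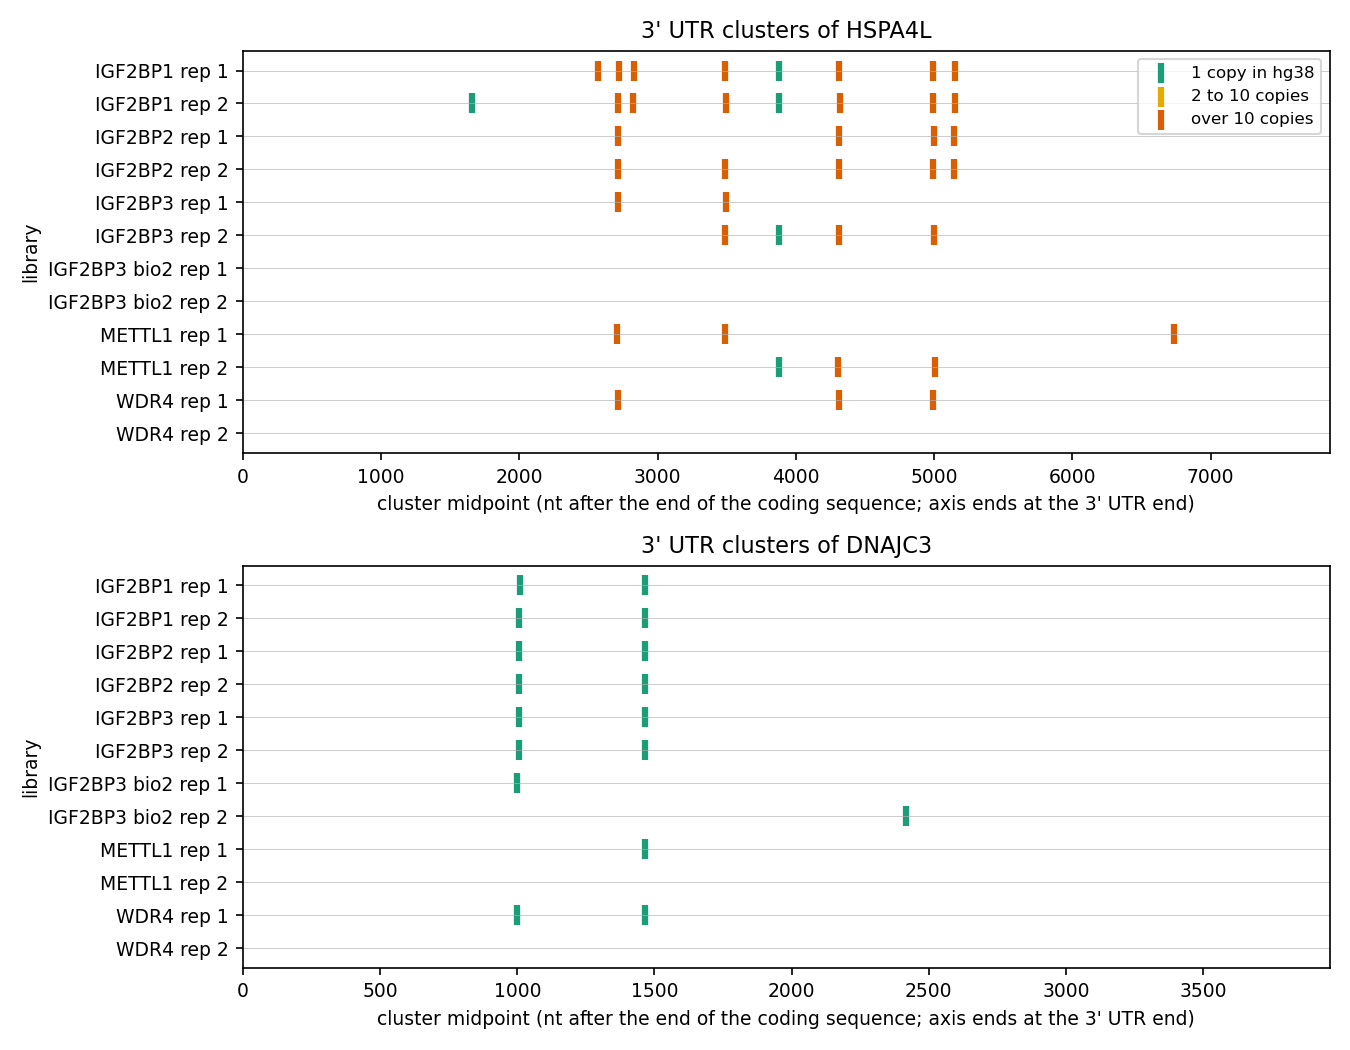
Midpoints of 3' UTR clusters (nt after the coding sequence, linear axis) in each library for HSPA4L (top) and DNAJC3 (bottom), colored by the number of copies of the central 20 nt in hg38. In HSPA4L 35 of 40 clusters are in repeated sequence, and in DNAJC3 all 17 are single-copy and sit mostly at the same pair of positions.

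The clusters of this pair of genes, of any copy number, were spread over libraries in another way than those of the other 98 genes. Single-copy clusters were 7 of the 62 in the pair and 153 of the 203 in the other genes. HSPA4L and DNAJC22 gave 5.86 to 13.1 exonic clusters per 10000 in the 6 IGF2BP libraries without the bio2 label, 1.09 to 5.78 in the METTL1 and WDR4 libraries and 0 in both bio2 libraries, where a count of 0 allows up to 4.65 and 4.99 per 10000. The other 98 genes gave 14.7 to 24.8, 10.4 to 12.3 and 34.1 and 33.3 in the same groups. For the other 98 genes the bio2 libraries were above all 10 others, while for the pair the limits of the bio2 libraries lie above the lower of the METTL1 and WDR4 values. DNAJC22 also had 31 clusters classed as intronic, all past the end of its main transcript at position 49353690 of chromosome 12, and 5 of them were single-copy.

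Intronic clusters were fewer than exonic ones. Of 69 merged intronic sites, 50 came from 1 library. The site found in the most libraries was in HSPA4L. It lay at chr4:127791707-127791764 (plus strand) and was present in 9 libraries, namely both IGF2BP1, both IGF2BP2, 1 IGF2BP3, both METTL1 and both WDR4 libraries. It was single-copy, unlike most of the clusters of this gene's 3' UTR, and its window held CAUH at 3 places. DNAJC3 had an intronic site found in both METTL1 libraries and in no other, at chr13:95681784-95681832 (plus strand).

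The gene test on intronic clusters covered 1684 genes, of which 15 (0.891%) were higher in the IGF2BP libraries and 97 (5.76%) in the METTL1 and WDR4 libraries. Of 8 chaperone genes tested, none passed and 1 had an unadjusted p below 0.05, against 22.8% of all genes tested. This was DNAJC21, with 1 intronic cluster in METTL1 replicate 1, both WDR4 and both IGF2BP1 libraries and 0 elsewhere (difference -0.74 per 10000, exact permutation test, two-sided, p = 0.0222, adjusted p = 0.132). The median difference was 0.0809 for chaperone genes and -0.19 for all genes tested. HSPE1-MOB4, a read-through gene among the 8, was tested on 5 intronic clusters, of which 4 lie in the HSPE1 3' UTR and 1, in METTL1 replicate 2, has a center with 2587 copies in the genome.

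The share of chaperone clusters with CAUH followed the share over all genes from library to library. In the 30-nt windows of exonic clusters it was present in 21 of 49 and 22 of 50 chaperone clusters in the IGF2BP1 libraries and in 6 of 14 and 6 of 20 in IGF2BP2. The shares were 52.6% and 50.0% in IGF2BP3 and 63.6% and 65.0% in bio2. It was present in 3 of 10 and 3 of 14 in METTL1 and in 23.5% and 25.0% in WDR4. Over exonic clusters of all genes the shares ran from 27.1% to 31.2% in METTL1 and WDR4, 35.5% to 46.4% in IGF2BP1 and IGF2BP2, 55.6% and 57.2% in IGF2BP3 and 68.1% and 69.3% in bio2. In each of the 12 libraries the share over all genes fell inside the 95% Wilson interval of the chaperone genes, which rested on 10 to 50 clusters. Of the recurring sites, 14 of 37 in 3' UTRs and 4 of 9 in coding sequence held the element.

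**Figure D5:**
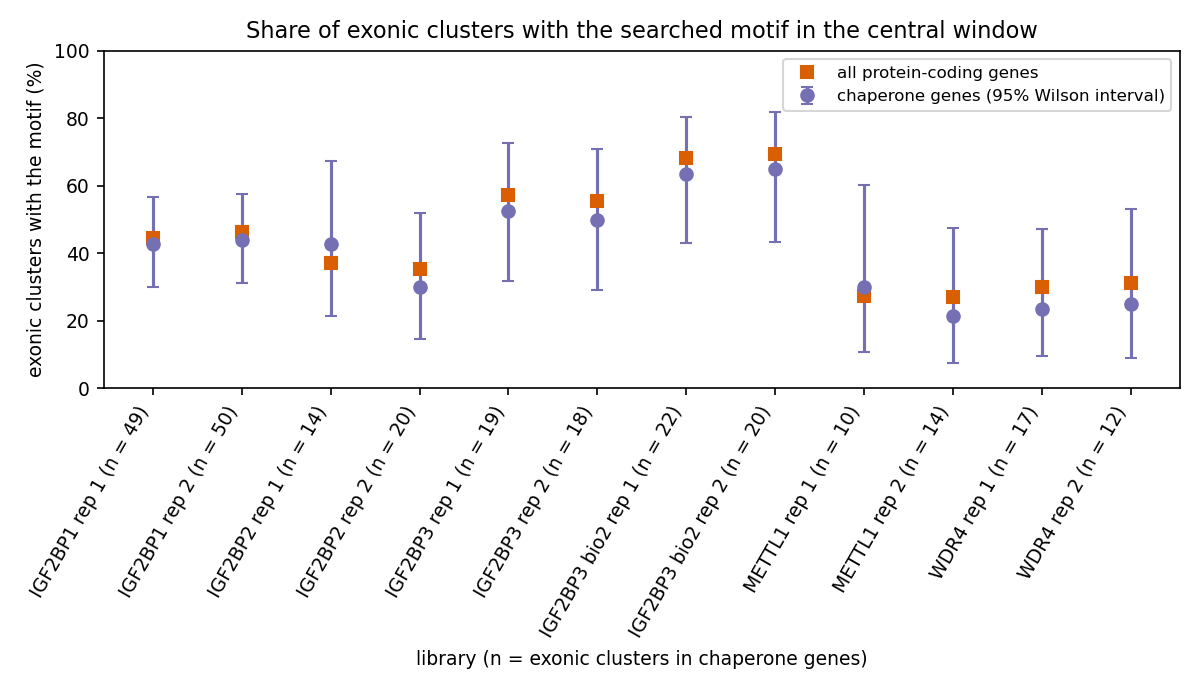
Share of exonic clusters (%) with CAUH in the central 30 nt, by library, for chaperone genes (purple circles, 95% Wilson interval) and all protein-coding genes (orange squares). All 12 squares lie inside the intervals, and the shares run from 21.4% in a METTL1 library to 65.0% in a bio2 library for chaperone genes.

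The HSP90 genes, outside the rule by their names, were bound more widely than most chaperone genes. HSP90AB1, the constitutive cytosolic HSP90, had an exonic cluster in all 12 libraries, with 23 clusters in all, of which 13.0% were single-copy. HSP90AA1, its inducible partner, had clusters in 6 libraries, with 3 and 2 in bio2 and at most 1 in any other. HSP90B1, the HSP90 of the endoplasmic reticulum, had 2 and 3 in bio2, 1 in WDR4 replicate 1 and none elsewhere.

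Co-chaperones and other genes of the folding pathway, 64 in all with the HSP90 genes among them, had exonic clusters in 43 cases (67.2%, against 31.1% of all genes). Of these, 27 were tested and 1 passed. EDEM1, which directs misfolded glycoproteins to degradation, was at 2.66 clusters per 10000 in the IGF2BP libraries and had none in the METTL1 and WDR4 libraries (exact permutation test, two-sided, p = 0.00202, the smallest the design allows, adjusted p = 0.0432). EDEM1 also entered the test through IGF2BP libraries alone, and its call is lost wherever no gene is called, such as without any 1 library other than IGF2BP2 replicate 1. CANX, a lectin chaperone that works with PDIA3, had an adjusted p of 0.136 by the same exact test. A reproducible exonic site of IGF2BP1 was present in 29 genes of this list (45.3%), of IGF2BP3 in 24 (37.5%), of IGF2BP2 in 9 (14.1%), of WDR4 in 7 (10.9%) and of METTL1 in 5 (7.81%), each above the percentage of all genes given for that protein. The list was chosen with earlier results of these data known, and it is not matched to other genes in RNA level or length. Neither was tested as a part of these shares.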

How the data were processed

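PAR-CLIP clusters of 12 HepG2 libraries were used. The authors used the FASTX toolkit for quality filtering, adapter removal and collapsing of duplicates, mapped what was longer than 15 nt with bowtie (up to 3 mismatches and 10 places) and called clusters with PARalyzer. The submitters' processing notes name Bowtie and hg38. Versions and PARalyzer settings were not given in the sources used here. The deposited files hold positions only, with no score or read count, so depth per cluster is unknown.

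Starts were read as counted from 1. Clusters were assigned by their midpoint, on their own strand, to GENCODE v44 genes, with the class chosen in the order coding, 3' UTR, 5' UTR, any remaining exon, intron. Copy number is the number of occurrences of the central 20 nt in hg38 without alternate contigs. Named genes were, per protein, the 5 with most reproducible exonic sites, those in at least 9 libraries, those passing the test and 14 well-known genes, plus the HSP90 genes, and others are named where counts are small. The sites shown come from the 12 found in most libraries, except where stated. The sequence of 1 site is not reported here. The members and lists were chosen with earlier results of these data known. The test is described with its result, and alternatives are given in the closing section. Python 3 with numpy, pandas and scipy was used, and the code was tested on simulated data. Intervals cover counting error only.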

Additional observations from a re-analysis of the deposited data

Results flagged for a closer look

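With 4 METTL1 and WDR4 libraries, 4 of the chaperone genes checked had a library far from the other 3 in exonic clusters per 10000. CCT2 was at 0 in METTL1 replicate 1 and above 1 in the other 3. DNAJC21 and HSPD1 were both at 1.51 in METTL1 replicate 1 and 0 elsewhere in the group, and HSPE1 was at 1.16 in METTL1 replicate 2 and 0 elsewhere. Each of these values is 1 cluster present or absent. In all, 36 groups were tested in this way, and not every chaperone gene was checked. DNAJA3, with 1 cluster in METTL1 replicate 1 and 0 elsewhere in the group, was among those left out. A checked gene with clusters in only 1 of the 4 METTL1 and WDR4 libraries is always marked, so no chance rate can be given for such marks.

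Clusters on the strand opposite to a chaperone gene numbered 114 over the 12 libraries and were not compared as antisense clusters. DNAJC16 held 87 of them, in all 12 libraries, with a median of 157 copies of the central 20 nt in the genome. DNAJC14 held 9 in 4 libraries, HSPD1 5 in 5 libraries and FKBP15 4 in 4 libraries. The 5 clusters opposite HSPD1 lie within HSPE1 and on its strand. They are the HSPE1 exonic clusters described and tested above.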

How the results depend on the processing

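The number of genes called over all genes was not stable, while the number of chaperone genes called was 0 under each exonic and intronic alternative. Exonic calls (149 of all genes) ranged from 0 to 225 when 1 library was left out. They were 0 without the 2 bio2 libraries, with the replicate block, with proteins as units, with raw cluster numbers, with thinned libraries, with presence or absence, and with genes in at least 2 libraries. Intronic calls (112) ranged from 0 to 131 when 1 library was left out. They were 0 without the bio2 libraries, with the replicate block, with proteins as units, with presence or absence, with genes in at least 2 libraries and with single-copy clusters, and 41 with genes in at least 6 libraries. Leaving out libraries, blocking and pooling by protein leave fewer assignments and so a larger smallest p. Without the block, 149 genes shared the smallest p, and at least 129 had to for calls that rest on that p alone.

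Same-numbered libraries of different proteins shared only a number. The correlation of their deviations ran from -0.06 to 0.07 over 15 pairs, so no pairing was used, and the replicate block changed no call of a chaperone gene.

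The intron difference between the groups was -18.65 points with single-copy clusters and -40.35 without HSPA4L and DNAJC22, an alternative chosen after seeing the data, against -29.4. With 1 library left out, the difference ran from 20.8 to 29.3 points for 3' UTRs, 4.01 to 8.22 for coding sequence and -33.6 to -26.3 for introns, and from 0.0513 to 0.0990 for the share of clusters in chaperone genes. The coding difference of 6.79 points fell to 0.323 without the bio2 libraries, and the difference of 0.0723 points in the share of clusters fell to 0.0326 without HSPA4L and DNAJC22.

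Chaperone genes with a reproducible site numbered 4 for IGF2BP2 with single-copy clusters, against 4.26% of all genes. For IGF2BP3 they numbered 10 without the bio2 libraries (10.1% of all genes) and 10 from the bio2 libraries alone (9.28%). Sites in all 4 IGF2BP3 libraries were present in 4 chaperone genes (4.97% of all genes). For METTL1 the count was 1 with the HSP90 genes added.

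The difference turned for FKBP4 (-0.07335 without IGF2BP2 replicate 1 and -0.04116 without METTL1 replicate 1 or WDR4 replicate 2, with a range of -0.07335 to 0.344 when 1 library was left out), FKBP1A (0.313 without WDR4 replicate 1, with a range of -0.7108 to 0.313, and 0.0837 with single-copy clusters), and, with presence or absence, FKBP10 (-0.25) and DNAJC22 (-0.125). The other 292 of 299 alternative values for named genes kept their direction and their side of the threshold. Where no cause is given, the cause was not tested. With 19 to 63 chaperone clusters per library and mostly 0 to 2 per gene, small differences were not detectable at this depth.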
